A study of Homo sapiens with 9 samples.

Results

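The 10 genes described here mark the lineages that have been proposed for HEK293T cells. PAX2, PAX8, EYA1, WT1 and LHX1 encode regulators of the embryonic kidney, LRP2 encodes a receptor of kidney epithelium, NEFL and NEFM encode neurofilament subunits, and KRT8 and KRT18 encode keratins of simple epithelia. They were taken as the entries with these gene names among the 58735 genes listed in each library, and all 10 were found. The cells were HEK293T, derived from human embryonic kidney and expressing SV40 large T antigen. In all libraries, controls included, PRPS1 carried HA and dTAG tags and PRPSAP1 carried V5 and BromoTag tags, the dTAG and BromoTag being handles for induced degradation. One group of 3 libraries came from cells given dTAG47 (500 nM, 24 h), a compound meant to deplete PRPS1, and another group of 3 from cells given AGB1 (500 nM, 24 h), meant to deplete PRPSAP1. The control group of 3 libraries came from cells given DMSO, the solvent, for 24 h. Nothing in the labels tells whether the cells were 1 clone or whether replicates were grown separately, so the p-values below measure only the spread between these libraries. Protein was not measured in the data used here, and the compounds act on protein, so the transcript counts do not check the depletion.

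In the embryo, the kidney forms from intermediate mesoderm, where PAX2 and PAX8 act together with LHX1 and EYA1 before nephron progenitors condense, and WT1 is later kept on in the podocytes of the glomerulus. Neurofilaments are the intermediate filaments of neurons, built from light (NEFL), medium (NEFM) and heavy subunits, and are used as markers of neuronal differentiation. KRT8, a type II keratin, and KRT18, a type I keratin, pair with each other to form the intermediate filaments of simple epithelia such as kidney tubules. HEK293T is labelled as epithelial, and the line has been described as holding kidney, neuronal and adrenal traits.

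PAX2 and PAX8 are paralogs with a shared DNA-binding paired domain, so their most alike coding stretch is shown to see whether reads could pass from one to the other. It is the ungapped stretch of 75 bases with the fewest mismatches in the alignment of the principal GENCODE 29 transcripts, at coding positions 304 to 378 in PAX2 (chromosome 10, GRCh38) and 283 to 357 in PAX8 (chromosome 2), and capitals mark the 7 bases that differ.
PAX2: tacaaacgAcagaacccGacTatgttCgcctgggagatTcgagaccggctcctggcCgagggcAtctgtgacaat
PAX8: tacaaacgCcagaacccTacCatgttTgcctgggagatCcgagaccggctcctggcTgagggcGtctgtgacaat
Across the 895 aligned coding columns the paralogs were 69.1% identical. No 75-base word of the principal PAX2 transcript occurred in a transcript of another gene. The words of the principal PAX8 transcript shared with another gene (5.13%) were those of its antisense neighbour PAX8-AS1.

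Levels were set side by side between genes in TPM, transcript levels with counts divided by gene length and scaled to the library. NEFM was the highest at 170 ± 15.3 TPM (mean and SD over the 9 libraries), followed by NEFL at 90.2 ± 4.66 TPM. The keratins came next, with KRT18 at 62.2 ± 5.63 TPM and KRT8 at 17.6 ± 1.87 TPM. All 4 filament genes therefore had higher TPM than the kidney genes. Among the kidney genes, WT1 was at 12.6 ± 2.40 TPM and LRP2 at 6.82 ± 1.29 TPM. LHX1 was at 2.42 ± 0.562 TPM, PAX2 at 0.842 ± 0.224 TPM and EYA1 at 0.584 ± 0.144 TPM. PAX8 closed the order at 0.00374 TPM. Each gene exceeded the next one in 9 of 9 libraries. That order was set by lengths counted over all exons of a gene. With the length of the principal transcript instead, a choice made after the data were seen, KRT18 (78.3 TPM) stood above NEFL (58.4 TPM), and PAX2 exceeded EYA1 in 4 of 9 libraries only.

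**Figure D1:**
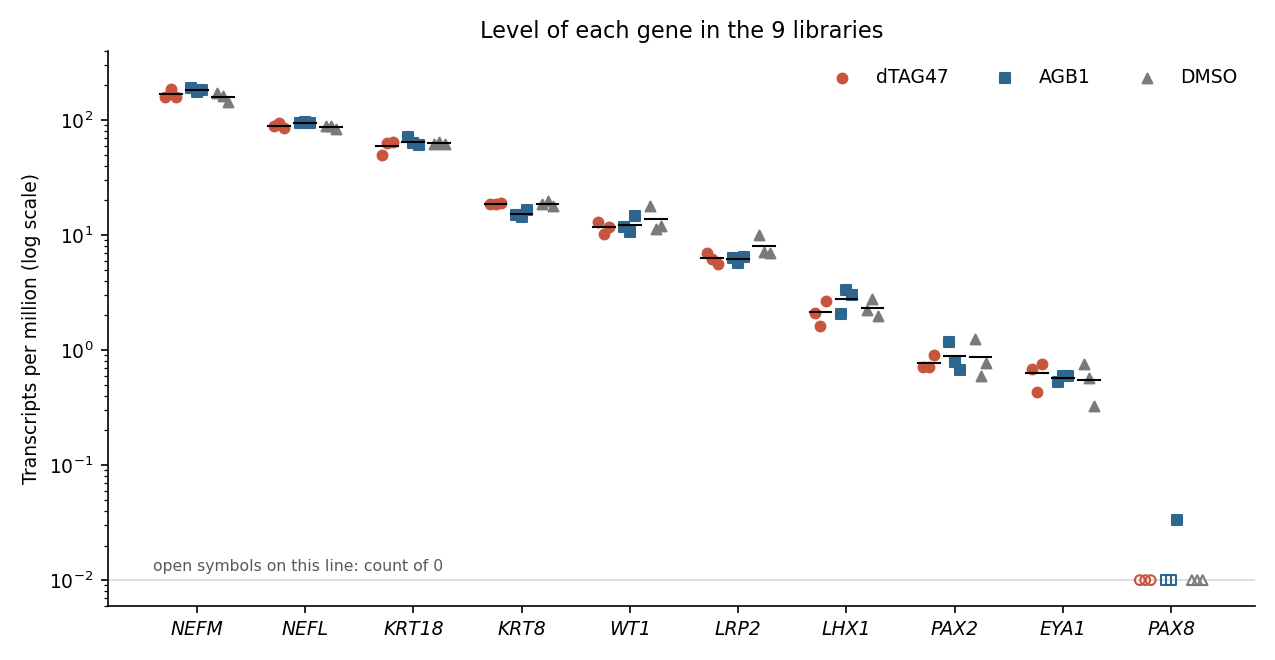
Level in TPM (log scale) of the 10 genes in each of the 9 libraries, ordered by mean level. Symbols are libraries, bars are group means over 3 libraries, and open symbols mark a count of 0. The 2 neurofilament and 2 keratin genes lie above the 6 kidney genes, and PAX8 has a count in 1 AGB1 library only.

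The genes sit at very different places among the 19951 protein-coding genes listed. By TPM, NEFM ranked 928, NEFL 2053 and KRT18 3111, whereas PAX2 ranked 12873 and EYA1 13256. The counts behind them differ accordingly, from 5579 to 9420 per library for NEFM and from 31 to 71 for PAX2. The spread between libraries tended to be larger for the genes with fewer counts, with exceptions between NEFL and NEFM and between KRT8 and KRT18. The biological coefficient of variation in the edgeR model was 5.42% for NEFL and 5.83% for NEFM, 7.36% for KRT8 and 7.52% for KRT18, 9.51% for LRP2 and 13.0% for WT1, and 21.2% to 29.5% for LHX1, EYA1 and PAX2. The standard error of a log2 fold change between dTAG47 and DMSO was 0.062 for NEFL, 0.064 for NEFM and 0.38 for PAX2.

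Libraries held 27964128 to 44803380 counts each, and 18319 genes passed the filter on low counts and were tested, 9 of the 10 genes among them. PAX8 did not pass. Mitochondrial transcripts took 1.91% to 2.33% of counts. One library, dTAG47 1, stood apart: across genes, its deviation from each gene's mean followed transcript GC content with a Spearman's rho of 0.623, against -0.378 to 0.271 in the 8 others, DMSO 1 being the lowest and dTAG47 2 next at -0.329. Fold changes that leaving out dTAG47 1 or DMSO 1 moved most are also given without that library.

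PAX8 (chromosome 2, 113215997 to 113278950, minus strand, GRCh38), which specifies the nephric lineage together with PAX2, was the only one of the 10 genes with a count of 0 in any library. Its count was 0 in all 3 dTAG47 libraries, 0, 0 and 2 in the AGB1 libraries, and 0 in all 3 DMSO libraries, a sum of 2 among 309613446 counts. A count of 0 allows up to 3 counts, or 0.0670 to 0.107 CPM (counts scaled to library size, not to gene length) at these depths, and these limits cover counting error only. PAX8-AS1, which overlaps 9.26% of the PAX8 exonic bases on the other strand, had 15 counts in all. Without PAX8 counts, a change of its ratio to PAX2 with either compound could not be measured.

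PAX2 itself (chromosome 10, 100735603 to 100829941, plus strand) was detected in every library at a low level. Levels between groups are given in CPM with library sizes scaled by TMM, here and below. PAX2 had 1.16, 1.14 and 1.47 CPM in the dTAG47 libraries, 1.92, 1.29 and 1.10 CPM in the AGB1 libraries, and 1.97, 0.965 and 1.26 CPM in the DMSO libraries. The groups overlapped, and DMSO 1 and AGB1 1 were the highest libraries. With dTAG47 the log2 fold change of PAX2 against DMSO was -0.15 (95% interval -0.94 to 0.63), and AGB1 gave 0.047 (-0.73 to 0.83). Without DMSO 1 the values were 0.17 with dTAG47 and 0.37 with AGB1. On the linear scale these intervals run from 0.523 to 1.55 times and from 0.601 to 1.78 times the DMSO level, and no difference of PAX2 was detectable within them at this depth and spread.

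The other regulators of the early kidney were no clearer. EYA1, a transcriptional coactivator and phosphatase, had 1.68, 1.05 and 1.86 CPM with dTAG47, 1.30, 1.47 and 1.46 CPM with AGB1, and 1.81, 1.40 and 0.803 CPM in DMSO, which held both the lowest EYA1 value and one of the highest. LHX1, a LIM homeodomain factor of the nephric duct and renal vesicle, had 2.67, 2.03 and 3.36 CPM with dTAG47, 2.63, 4.26 and 3.85 CPM with AGB1, and 2.75, 3.49 and 2.52 CPM in DMSO. All groups overlapped for both genes, of which EYA1 lies on chromosome 8 (71197433 to 71592025, minus strand) and LHX1 on chromosome 17 (36936785 to 36944612, plus strand). For EYA1 the log2 fold change was 0.19 ± 0.38 (estimate and SE) with dTAG47 and 0.074 ± 0.38 with AGB1, and without DMSO 1 it was 0.47 with dTAG47 and 0.36 with AGB1. For LHX1 it was -0.12 ± 0.26 with dTAG47 and 0.29 ± 0.26 with AGB1.

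WT1, a zinc finger factor needed for kidney formation and for podocytes, was the highest kidney regulator among the 10 genes. It had 13.9, 10.8 and 12.6 CPM in the dTAG47 libraries, 12.6, 11.4 and 15.8 CPM in the AGB1 libraries, and 18.7, 11.99 and 13.0 CPM in the DMSO libraries. The gene lies on chromosome 11 at 32387775 to 32435630, minus strand. The groups overlapped, and DMSO 1 was the highest library of all 9. On the log2 scale WT1 was lower by a value short of the threshold, at -0.23 for dTAG47 (95% interval -0.55 to 0.084) and -0.13 for AGB1 (-0.45 to 0.18). Without DMSO 1 these were -0.013 for dTAG47 and 0.088 for AGB1. WT1-AS, which overlaps 2.75% of the WT1 exonic bases on the other strand, had 400 counts in all, against 4126 for WT1. Since a strand setting is not stated, reads of such partners cannot be told apart.

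LRP2 encodes megalin, the large endocytic receptor that retrieves filtered proteins in the proximal tubule and also takes part in forebrain development. The gene lies on chromosome 2 at 169127109 to 169362685, minus strand, and shares no exonic base or 75-base word with another gene. It had 29.8, 25.9 and 23.5 CPM in the dTAG47 libraries, 27.2, 24.2 and 27.2 CPM in the AGB1 libraries, and 41.0, 30.0 and 29.8 CPM in the DMSO libraries. In CPM all 6 compound-treated libraries were below the 3 DMSO libraries, dTAG47 1 (29.77) only just below DMSO 3 (29.78), and DMSO 1 stood well above the rest. In TPM dTAG47 1 (7.01) exceeded DMSO 3 (6.96), so that dTAG47 overlapped DMSO, while AGB1 did not. The group means were 26.4 ± 3.17 CPM with dTAG47, 26.2 ± 1.73 CPM with AGB1 and 33.6 ± 6.42 CPM in DMSO (SD, n = 3 each). Against DMSO the log2 fold change of LRP2 was -0.35 for dTAG47 (95% interval -0.58 to -0.11) and -0.36 for AGB1 (-0.59 to -0.12), and neither passed 0.05 after Benjamini-Hochberg adjustment over all tested genes in edgeR's quasi-likelihood test (adjusted p = 0.414 and 0.360). Both comparisons use the same 3 DMSO libraries, so the 2 values are not independent. DMSO 1 decided much of their size: without it, the log2 fold change of LRP2 was -0.18 with dTAG47 and -0.19 with AGB1. In bulk libraries, fewer cells with a transcript and less of it per cell cannot be told apart.

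**Figure D2:**
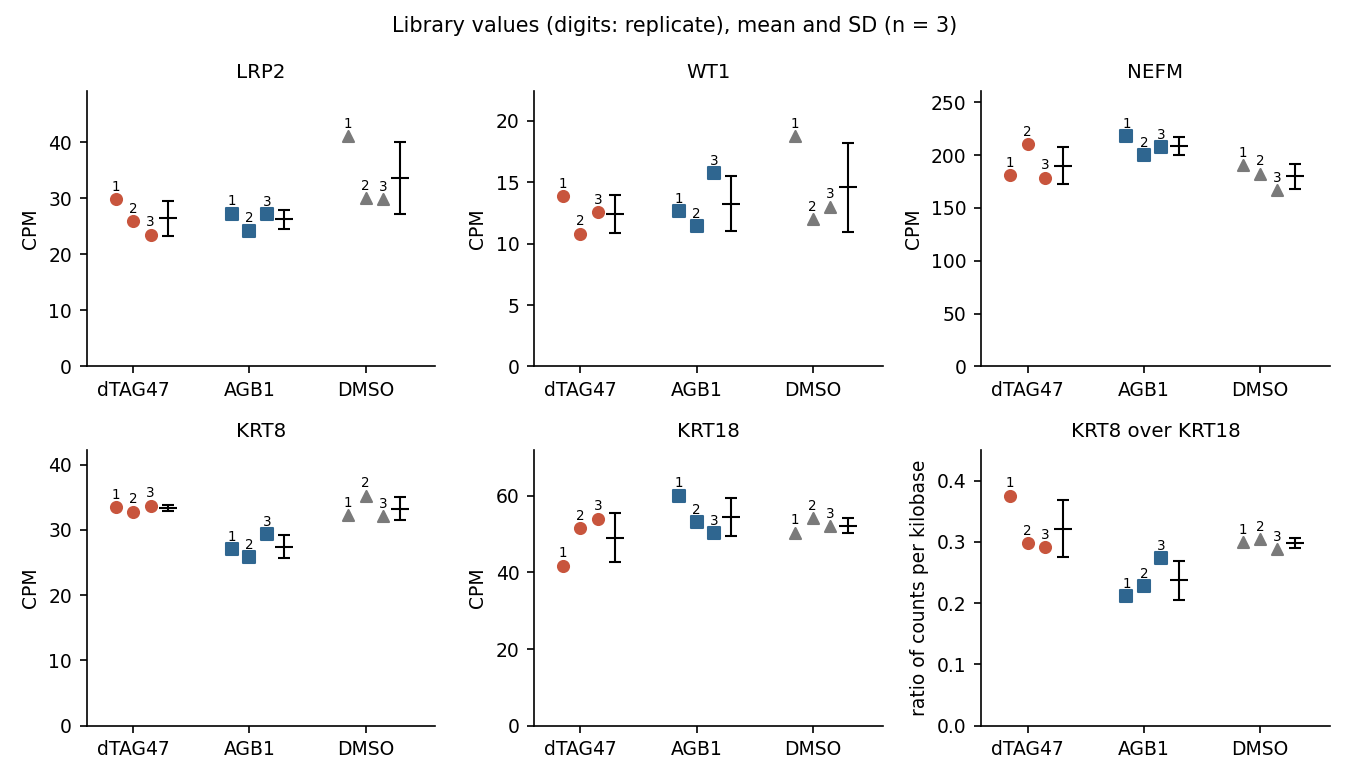
CPM of LRP2, WT1, NEFM, KRT8 and KRT18, and the ratio of KRT8 to KRT18 counts per kilobase, in each library (symbols, with the replicate number), with group mean and SD (n = 3). For LRP2 and WT1 the DMSO 1 library is the highest, the 3 AGB1 libraries are the lowest for KRT8, and they lie above the 3 DMSO libraries for NEFM.

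The neurofilament genes were the most abundant and the most precisely measured. Both lie on chromosome 8 (GRCh38), NEFM at 24913012 to 24919098 on the plus strand and NEFL at 24950955 to 24957110 on the minus strand. A gene on the other strand, AF106564.1, covers 38.9% of the NEFM exonic bases and had 626 counts over the 9 libraries, 1.05% of the NEFM count. NEFM had 181, 210.3 and 179 CPM in the dTAG47 libraries, 218, 200.1 and 208 CPM in the AGB1 libraries, and 190.4, 183 and 167 CPM in the DMSO libraries. The AGB1 libraries were all above DMSO, and dTAG47 overlapped both. Mean levels were 190.1 ± 17.5 CPM with dTAG47, 209 ± 8.80 CPM with AGB1 and 179.9 ± 12.1 CPM in DMSO (SD, n = 3 each). The log2 fold change of NEFM was 0.21 with AGB1 (95% interval 0.082 to 0.35, edgeR adjusted p = 0.307) and 0.080 with dTAG47 (-0.051 to 0.21, edgeR adjusted p = 0.839). The difference between the compounds, dTAG47 minus AGB1, was -0.13 (-0.26 to -0.0015, edgeR adjusted p = 0.999).

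NEFL, the subunit that neurofilaments cannot assemble without, had 99.4, 104 and 95.8 CPM in the dTAG47 libraries, 107, 109 and 106 CPM in the AGB1 libraries, and 96.5, 99.0 and 94.8 CPM in the DMSO libraries. In CPM the AGB1 libraries were above those of both other groups. In TPM they were above DMSO but overlapped dTAG47, since dTAG47 2 (94.3 TPM) exceeded AGB1 1 (93.8 TPM) and AGB1 3 (94.0 TPM). Its log2 fold change was 0.15 for AGB1 against DMSO (95% interval 0.021 to 0.28, edgeR adjusted p = 0.543) and 0.046 for dTAG47 (-0.081 to 0.17, edgeR adjusted p = 0.918). The proportion of the partners was similar in all groups. Their NEFM to NEFL ratio, from counts per kilobase, was 1.80, 1.99 and 1.84 with dTAG47, 2.01, 1.81 and 1.94 with AGB1, and 1.95, 1.82 and 1.74 in DMSO. Differences of the mean log2 ratio lay between -0.032 and 0.065 and the groups overlapped (exact permutation, two-sided, with p of 0.5 to 0.7; groups of 3 cannot give a p under 0.1).

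KRT8 and KRT18 lie beside each other on chromosome 12, KRT8 at 52897187 to 52949954 on the minus strand and KRT18 at 52948871 to 52952901 on the plus strand (GRCh38). The annotated genes overlap by 525 exonic bases, which is 7.63% of KRT8 and 16.3% of KRT18. Both also have many processed pseudogenes. The files list 50 pseudogenes named after KRT8, of which 21 had a count, and 67 named after KRT18, of which 25 had a count. KRT8P12 on chromosome 3 had the most, 159 to 314 counts per library, and reads can pass between such copies. The KRT8 coding sequence and the KRT8P12 transcript (GENCODE 29) were 86.2% identical over 1459 aligned columns, gaps included. Of the 75-base words of the principal KRT8 transcript, 18.7% also occurred in transcripts of 13 other genes, KRT8P3 holding the most (9.26%). For KRT18 the share was 25.5%, over 15 other genes, and KRT8 itself held the most (19.7%), through the overlap.

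KRT8 had 33.5, 32.8 and 33.7 CPM in the dTAG47 libraries, 27.1, 25.8 and 29.3 CPM in the AGB1 libraries, and 32.3, 35.3 and 32.1 CPM in the DMSO libraries. The AGB1 libraries were below all others, while dTAG47 and DMSO overlapped. The log2 fold change of KRT8 was -0.28 with AGB1 against DMSO (95% interval -0.46 to -0.091, edgeR adjusted p = 0.366) and 0.0048 with dTAG47 (-0.18 to 0.19, edgeR adjusted p = 0.997). Between the compounds, dTAG47 minus AGB1, it was 0.28 (0.096 to 0.47, edgeR adjusted p = 0.999). The share of KRT8 pseudogenes in the summed count of KRT8 and its pseudogenes was highest in the AGB1 libraries, at 22.6%, 23.2% and 21.6% in dTAG47, 28.1%, 24.4% and 24.7% in AGB1, and 20.7%, 19.5% and 22.3% in DMSO. With pseudogene counts added to KRT8, its log2 fold change with AGB1 was -0.18 (edgeR adjusted p = 0.595).

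KRT18 had 41.8, 51.5 and 54.0 CPM in the dTAG47 libraries, 60.0, 53.0 and 50.3 CPM in the AGB1 libraries, and 50.4, 54.2 and 52.1 CPM in the DMSO libraries. All groups overlapped, and dTAG47 1 was the lowest library. KRT18 had a log2 fold change of -0.089 for dTAG47 (95% interval -0.27 to 0.095) and 0.061 for AGB1 (-0.12 to 0.25). Without dTAG47 1 the value for dTAG47 was 0.014. Pseudogenes named after KRT18 took 3.28% to 5.42% of the summed count, with KRT18P5 (4 to 26 counts per library) the highest.

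The proportion of the keratin partners was lowest in the AGB1 libraries. KRT8 relative to KRT18, from counts per kilobase, was 0.375, 0.298 and 0.292 in dTAG47, 0.211, 0.228 and 0.273 in AGB1, and 0.300, 0.304 and 0.289 in DMSO. The 3 AGB1 libraries had lower ratios than the 6 other libraries. The mean log2 ratio differed by -0.33 between AGB1 and DMSO, by 0.44 between dTAG47 and AGB1, and by 0.10 between dTAG47 and DMSO. Two-sided exact permutation tests gave p = 0.1, 0.1 and 0.7 for these differences, and 0.1 is the smallest p this design allows, so none can pass 0.05. Adjusted over the 6 ratios tested, the p-values were 0.3, 0.3 and 0.7 (exact tests). Without dTAG47 1, the library with the highest ratio, the difference between dTAG47 and DMSO was -0.014 and that between dTAG47 and AGB1 was 0.32. With pseudogene counts added to both keratins, the difference between AGB1 and DMSO was -0.24. With these counts added it was 0.37 between dTAG47 and AGB1 and 0.13 between dTAG47 and DMSO.

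Over the 9 genes tested, 0 passed the threshold in any comparison by edgeR, and 0 by DESeq2. Among all genes that DESeq2 gave an adjusted p, it called 0.257% in dTAG47 against DMSO, 0.591% in AGB1 against DMSO and 0.0% in dTAG47 against AGB1. In dTAG47 against DMSO, 0.06% of all tested genes passed; 1 of the 9 had an unadjusted p under 0.05, against 7.28% of all genes, and 1, LRP2, had no overlap between its libraries in CPM, against 11.6% of all. With AGB1 against DMSO, 0.104% of all tested genes passed. There 4 of the 9 (LRP2, NEFL, NEFM and KRT8) had an unadjusted p under 0.05, against 7.76% of all, and the same 4 had no overlap, against 13.3% of all. In dTAG47 against AGB1, where 0.0% of tested genes passed, 2 of the 9 (KRT8 and NEFM) had an unadjusted p under 0.05, against 4.02% of all, and 2 (KRT8 and NEFL) had no overlap in CPM, against 10.5%. In TPM, LRP2 with dTAG47 against DMSO and NEFL between the compounds overlapped. The median log2 fold change of the 9 genes was -0.089 with dTAG47 and 0.061 with AGB1, beside medians over all tested genes of -0.000974 and -0.000924. The genes were chosen with earlier results of these data known, so these counts are descriptions.

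**Figure D3:**
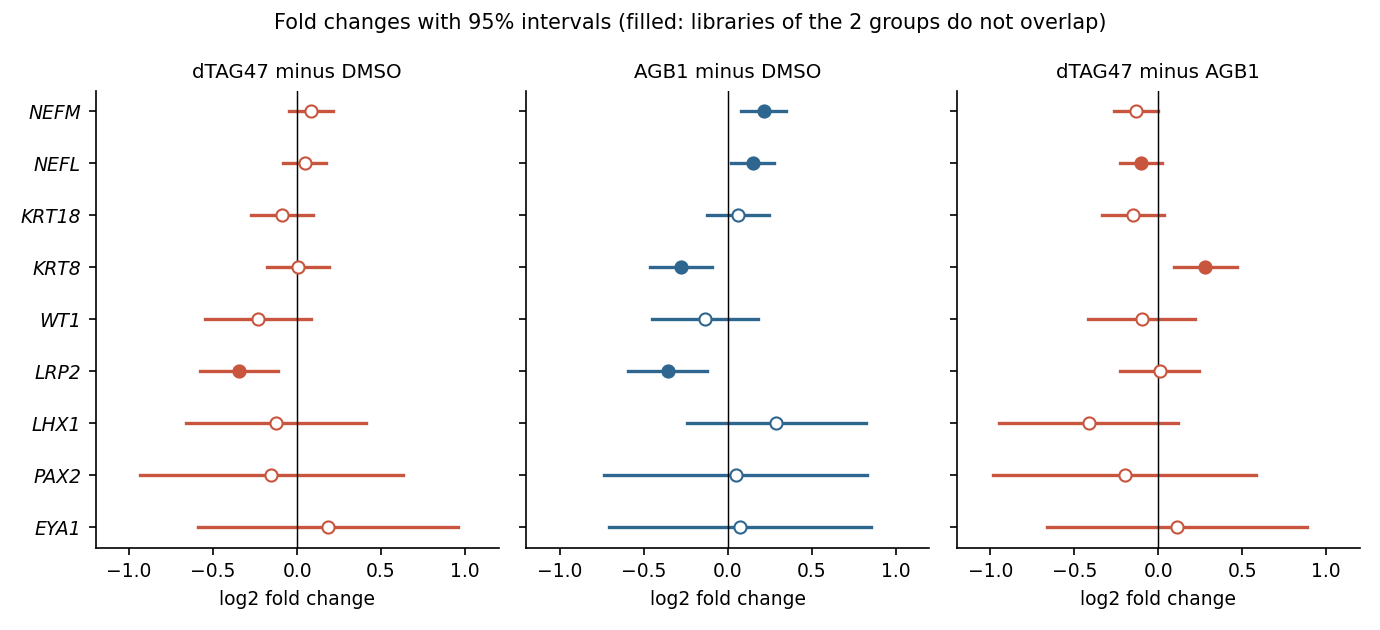
Log2 fold changes (x axis) of the 9 tested genes in the 3 comparisons, with 95% intervals; filled symbols mark genes whose libraries do not overlap between the groups in CPM. No gene passed the threshold, and the intervals widen from the neurofilament genes (SE 0.062 for NEFL) to PAX2 (SE 0.38).

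Settings other than the one used left every one of these fold changes short of the threshold. LRP2 in both comparisons with DMSO, and NEFM and KRT8 with AGB1, each kept their sign under all 17 other settings.

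**Figure D4:**
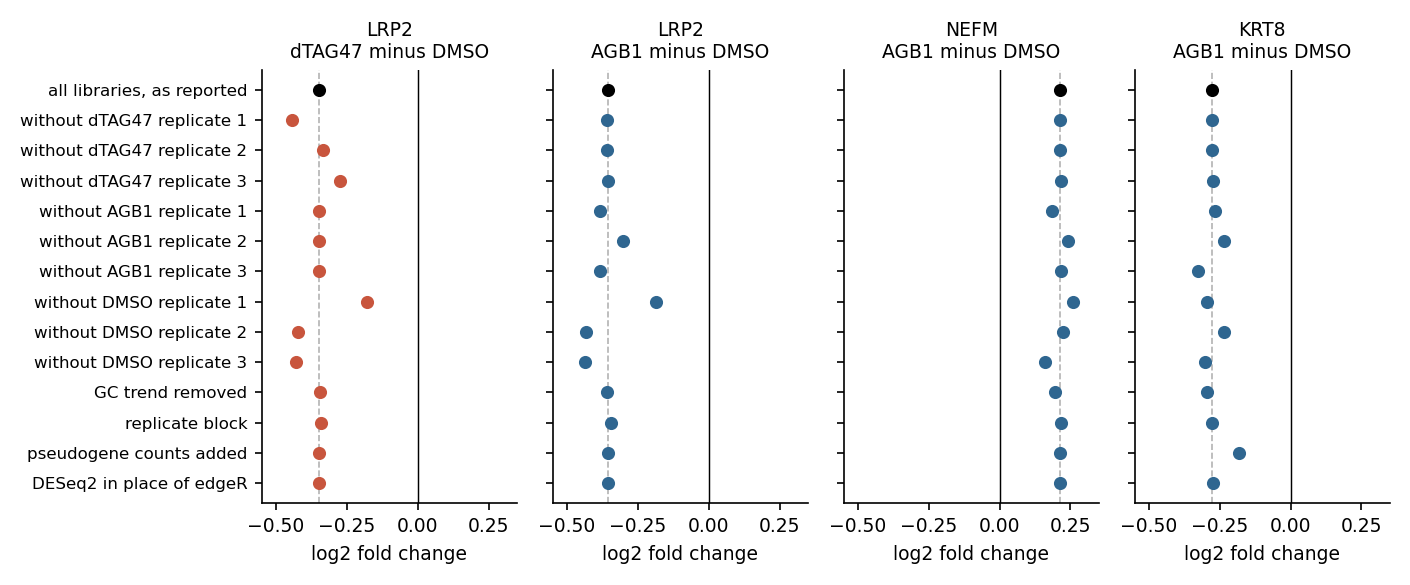
Log2 fold changes (x axis) of LRP2, NEFM and KRT8 under the analysis as reported (black, dashed line) and under other settings (rows). Leaving out DMSO 1 brings LRP2 to -0.18 (dTAG47) and -0.19 (AGB1), and adding pseudogene counts brings KRT8 to -0.18.

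The wider lineage lists placed the 10 genes among others of their kind. Of 39 further regulators of the embryonic kidney, 29 had a mean of at least 1 TPM and 16 of at least 10 TPM. The highest were FOXC1, a forkhead factor of mesoderm, at 262 TPM, the RNA-binding protein gene IGF2BP1 at 140 TPM, SIX2, which keeps nephron progenitors undifferentiated, at 86.7 TPM, and HOXA11, which patterns the metanephric mesenchyme, at 81.7 TPM. PAX2 and EYA1 were thus low beside the highest genes of that list. The EYA1 paralog EYA3, chosen after its value was seen, was higher than EYA1, at 73.9 TPM. Of the 32 tested regulators, edgeR called 0 in any comparison; 5 had an unadjusted p under 0.05 with dTAG47 against DMSO, 4 with AGB1 against DMSO and 0 between the compounds. Over all tested genes these shares were 7.28%, 7.76% and 4.02%. DESeq2 called 1 regulator, FOXC1, with dTAG47, where it called 0.257% of all genes. Their median log2 fold change in edgeR was -0.028 with dTAG47 and -0.066 with AGB1. The summed level of the list was 962 to 974 TPM with dTAG47, 959.8 to 967 TPM with AGB1 and 1017 to 1051 TPM in DMSO, with no overlap between DMSO and the other groups. The sum was not tested, and both comparisons use the same 3 DMSO libraries. Of all tested genes taken singly, 11.6% with dTAG47 and 13.3% with AGB1 had no overlap with DMSO in CPM. FOXC1 was the largest part of the sum, at 249 TPM with dTAG47, 254 TPM with AGB1 and 285 TPM in DMSO. Its log2 fold change was -0.19 ± 0.051 with dTAG47 (edgeR adjusted p = 0.219, DESeq2 adjusted p = 0.0245) and -0.15 ± 0.051 with AGB1 (edgeR adjusted p = 0.367).

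Markers of the mature nephron were mostly absent or low. Of 32 listed, 7 had a mean of at least 1 TPM, 25 were under 1 TPM and 6 had no count in any library. PODXL, the sialomucin of podocytes, was highest at 32.7 TPM, and lower values were those of the water channel gene AQP3 at 8.22 TPM and the peptidase gene GGT1 at 6.13 TPM. The partner of megalin in the proximal tubule, CUBN, was at 0.136 TPM, against 6.82 TPM for LRP2, and UMOD, the marker of the thick ascending limb, had no count; both were named after their values were seen. Of the 15 tested, 0 were called by edgeR or DESeq2 in any comparison. An unadjusted p under 0.05 was found for 0, 1 and 1 in dTAG47 against DMSO, AGB1 against DMSO and dTAG47 against AGB1. Over all tested genes, 7.28%, 7.76% and 4.02% had such a p in these comparisons. Calls over all genes were 0.06%, 0.104% and 0.0% by edgeR and 0.257%, 0.591% and 0.0% by DESeq2.

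Among 27 further neuronal markers, 16 had a mean of at least 1 TPM and 8 of at least 10 TPM. UCHL1, a neuronal ubiquitin hydrolase gene, was at 486 TPM, and STMN1, a microtubule regulator also high in dividing cells, at 190.5 TPM. INA, encoding the internexin subunit that joins neurofilaments, was at 49.3 TPM and the neuronal enolase gene ENO2 at 48.4 TPM. The heavy neurofilament gene NEFH was at 0.659 TPM, far below NEFM and NEFL, and ELAVL4, a neuronal RNA-binding protein gene, had no count; both were named after their values were seen. Of the 20 tested markers, 0 were called by edgeR or DESeq2 in any comparison. In the same order of comparisons, 2, 0 and 2 had an unadjusted p under 0.05, against 7.28%, 7.76% and 4.02% of all tested genes. The shares of all genes called were 0.06%, 0.104% and 0.0% by edgeR and 0.257%, 0.591% and 0.0% by DESeq2. The median log2 fold change of the list was -0.055 for dTAG47 and 0.030 for AGB1. INA had a log2 fold change of 0.052 ± 0.080 with AGB1, next to 0.21 ± 0.064 for NEFM and 0.15 ± 0.062 for NEFL.

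**Figure D5:**
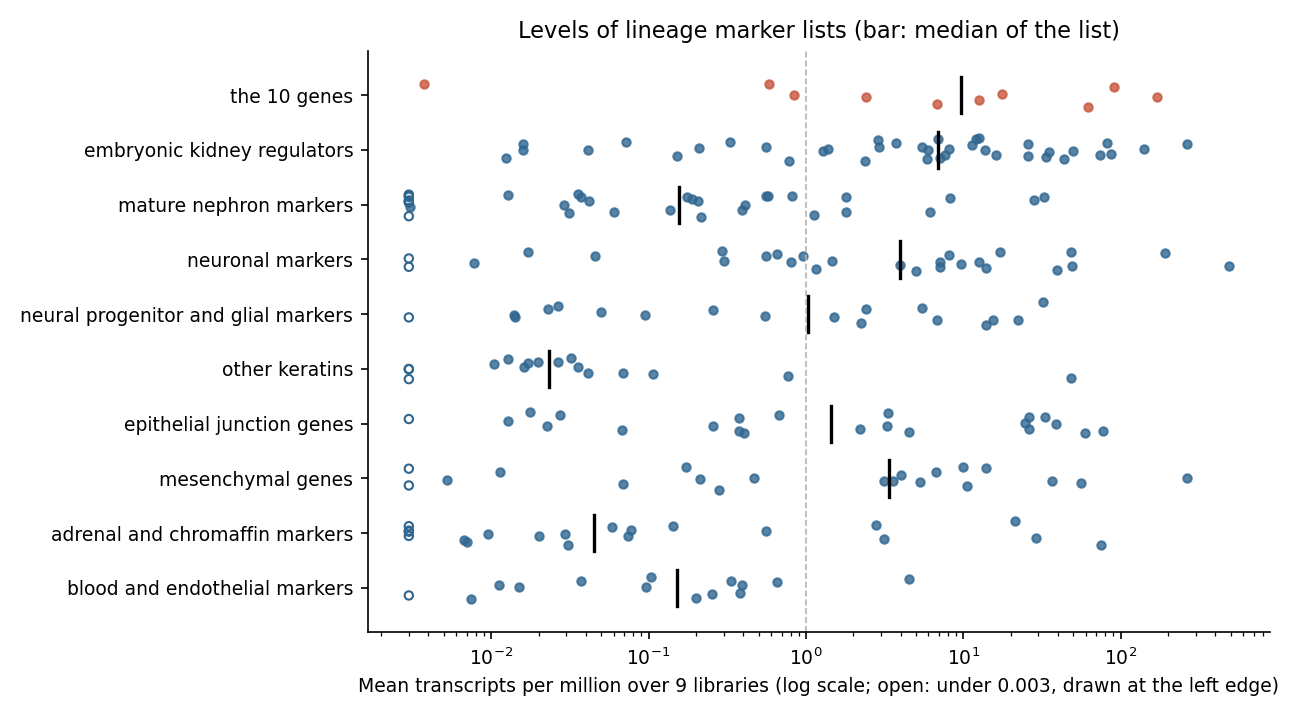
Mean TPM over the 9 libraries (log scale) of each gene in the lineage lists; bars are list medians, and open symbols are genes under 0.003 TPM. Embryonic kidney regulators have a median of 6.95 TPM and mature nephron markers one of 0.155 TPM.

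Of 16 other keratins, KRT10 alone had a mean of at least 1 TPM, at 48.1 TPM, and KRT17 followed at 0.771 TPM. KRT7 had no count and KRT19, a usual type I keratin of simple epithelia, was at 0.0354 TPM (both named after their values were seen), so that the keratin genes of simple epithelia detected at 1 TPM or more were KRT8 and KRT18. Epithelial junction genes were split: 11 of 22 had a mean of at least 1 TPM, led by DSP of desmosomes at 77.3 TPM, JUP at 59.1 TPM, the tight junction gene TJP1 at 39.0 TPM and the splicing regulator gene ESRP2 at 33.2 TPM. The defining surface markers of epithelia were lower, with CDH1 at 4.50 TPM and EPCAM at 3.25 TPM (named after their values were seen). Of 20 mesenchymal genes, 11 had at least 1 TPM, led by VIM at 264 TPM, CDH2 at 56.1 TPM, TWIST1 at 36.4 TPM and ZEB1 at 14.0 TPM. The labelled epithelial type was thus accompanied by higher levels of VIM than of KRT8 or KRT18. In these 3 lists, 0 of 2, 0 of 15 and 0 of 13 tested genes were called by edgeR or DESeq2 in any comparison. Over all genes, edgeR called 0.06%, 0.104% and 0.0% and DESeq2 0.257%, 0.591% and 0.0%, in the same order of comparisons. With dTAG47 against DMSO, 1 epithelial junction gene had an unadjusted p under 0.05, against 7.28% of all tested genes. For 1 mesenchymal gene this was so with AGB1 against DMSO (7.76% of all), and for 1 mesenchymal gene between the compounds (4.02% of all).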

How the data were processed

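Gene expression was measured by RNA sequencing in 9 libraries, 3 per group, grouped by the treatment labels and titles. Per the labels' protocols, poly-T beads captured the messenger RNA, which random hexamers primed. The deposited files hold raw counts per Ensembl gene, whole numbers made by the authors with HISAT2 on hg38, per the submitters' processing notes, which also name DESeq2. Which tool counted reads, whether it used strand, and any version is not given in the sources used here. Gene lengths in the other deposited columns equal the union of exons in GENCODE 29.

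Counts were analysed in edgeR 4.0.16 (R 4.3.3) with filterByExpr, TMM scaling and glmQLFTest, one coefficient per group over all 9 libraries. Benjamini-Hochberg adjustment covered the 18319 tested genes at a threshold of 0.05. CPM used TMM-scaled library sizes. TPM used the deposited lengths. Ratios within a library used counts plus 0.5 per kilobase and two-sided exact permutation tests; the PAX2 to PAX8 ratio was not tested, since PAX8 had 0 counts in 8 of 9 libraries. Tested on simulated counts for dTAG47 minus DMSO (17817 genes fitted), the fit recovered 37.3% of 1.25-fold, 67.2% of 1.5-fold and 89.4% of 2-fold changes, with 2 false calls among 17617 genes. The simulation changed 200 genes and held no GC trend, whereas edgeR called 11 genes in this comparison of the real libraries. The recovered shares may therefore not hold for the real libraries. Sequences and overlaps came from GENCODE 29. The alternatives were DESeq2 1.42.0, DESeq2 size factors, no count filter, only the 2 groups compared, a replicate block, removal of the GC trend (lowess span 0.3), the block with that removal, pseudogene counts added, each library left out, and principal transcript lengths.

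The genes and the 9 lists were chosen with earlier results of these data known. Named genes were the 10 genes, up to 4 highest genes by mean TPM and every called gene per list, for each tested gene the protein-coding gene of at least 5 CPM with the most similar deviations, the pseudogene with most counts of each keratin, and overlapping genes. Some genes under these rules, and the keratin sequences, are not reported here. Others were chosen after their values were seen and are given as such.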

Additional observations from a re-analysis of the deposited data

How the results depend on the processing

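None of the 9 tested genes passed the threshold under any of the 17 other settings. Of 459 fold changes recomputed, 437 kept their sign and 22 reversed, 20 of them with a library left out. The 2 others were KRT8 in dTAG47 minus DMSO, at -0.031 with the GC trend removed and -0.031 with the replicate block and the GC trend removed together. LRP2, with the replicate block, was at -0.34 with dTAG47 and -0.34 with AGB1. Its adjusted p ranged from 0.146 to 0.793 with dTAG47 and from 0.122 to 0.733 with AGB1. For NEFM with AGB1 it ranged from 0.139 to 0.709, for NEFL with AGB1 from 0.279 to 0.809, and for KRT8 with AGB1 from 0.126 to 0.727.

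With a library left out, dTAG47 minus DMSO ran from -0.36 to 0.17 for PAX2, from -0.084 to 0.47 for EYA1, from -0.32 to 0.047 for LHX1, from -0.00039 to 0.12 for NEFM, from -0.021 to 0.047 for KRT8 and from -0.16 to 0.014 for KRT18. AGB1 minus DMSO ran from -0.22 to 0.37 for PAX2, from -0.20 to 0.36 for EYA1, from -0.28 to 0.088 for WT1 and from -0.013 to 0.12 for KRT18. The values of dTAG47 minus AGB1 ran from -0.36 to 0.073 for PAX2, from -0.085 to 0.081 for LRP2, from -0.055 to 0.33 for EYA1 and from -0.19 to 0.042 for WT1. The log2 ratio of KRT8 to KRT18 ran from -0.014 to 0.17 in dTAG47 minus DMSO. That of NEFM to NEFL ran from -0.0094 to 0.077 in dTAG47 minus DMSO and from -0.075 to 0.0024 in dTAG47 minus AGB1.

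Counts over all genes moved more. In dTAG47 minus DMSO, edgeR called 11 genes, DESeq2 47, no filter 43, only the 2 groups 4, removal of the GC trend 22, and leaving out a library 2 to 20. In AGB1 minus DMSO, edgeR called 19, DESeq2 81, no filter 67, removal of the GC trend 47, the replicate block with that removal 48, and leaving out a library 6 to 55. In dTAG47 minus AGB1, edgeR called 0, no filter 13 and leaving out a library 0 to 2. The cause was not tested. The replicate block alone called 10, 17 and 0. Samples with the same number correlated between -0.156 and 0.0715 over 9 pairs, those with different numbers between -0.251 and 0.265 over 18. A closer likeness of same-numbered samples was thus not seen. Whether samples with the same number were grown or handled together cannot be told from these correlations. PAX2, EYA1 and LHX1 were the least precise, with mean counts of 46.9, 48.1 and 102 per library and biological coefficients of variation of 29.5%, 29.4% and 21.2%; the parts of depth and of spread between libraries were not tested.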

Other observations

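Several PAX genes other than PAX2 and PAX8 were expressed, a comparison chosen after the values were seen. PAX3, a regulator of neural crest and muscle progenitors, was at 10.9 TPM, PAX1 at 6.32 TPM, PAX9 at 6.01 TPM and PAX6, a regulator of eye and forebrain, at 5.50 TPM. PAX2 was at 0.842 TPM, PAX5 at 0.176 TPM and PAX7 at 0.138 TPM, and PAX4 had no count. PAX8 was therefore the lowest of the PAX genes with a count.

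Of 18 neural progenitor and glial markers, 9 had a mean of at least 1 TPM, led by MSI1 at 31.9 TPM, SOX2 at 22.4 TPM, OLIG2 at 15.5 TPM and SOX9 at 13.9 TPM. Of 20 adrenal and chromaffin markers, 5 had a mean of at least 1 TPM. They were led by FDX1, a mitochondrial electron carrier that other tissues also use, at 74.9 TPM, with GATA2 at 28.8 TPM, HAND1 at 21.4 TPM and PNMT, the enzyme that makes adrenaline, at 3.13 TPM. TH, the first enzyme of catecholamine synthesis, and MC2R, the receptor for adrenocorticotropin, had no count (named after their values were seen). Among 14 blood and endothelial markers, CD14 was at 0.654 TPM, KDR at 0.391 TPM and HBA1 at 0.382 TPM, and the pan-leukocyte gene PTPRC had 1 count in all. The summed level of these 14 was 4.25 to 6.67 TPM with dTAG47, 6.21 to 9.11 TPM with AGB1 and 5.67 to 9.92 TPM in DMSO.

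The pattern over the 9 libraries was compared with 10837 genes by the mean absolute difference of log2 deviations. The nearest gene was POU3F2 for LRP2 (0.067), KIF27 for WT1 (0.084), DAP3 for NEFL (0.020), RLF for NEFM (0.030) and KDM3A for KRT8 (0.046). For the low genes the nearest was TOGARAM1 for PAX2 (0.12), GRB14 for EYA1 (0.15) and DNHD1 for LHX1 (0.14). No test was made of these.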
